A study of Mus musculus with 2 samples.

Results

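Capillary endothelial cells of the mouse hippocampus were examined in 2 droplet single-cell RNA libraries, 1 per genotype (Mr1+/+ and Mr1-/-). The cells were chosen by their own transcripts, since no cell annotation by the submitters was used here. A barcode was kept if 300 or more genes were seen and no more than 10% of its UMIs (unique molecular identifiers, 1 per captured transcript) were mitochondrial, and it counted as capillary if it met 6 conditions. It held UMIs of at least 3 of the 6 endothelial genes Cldn5, Flt1, Pecam1, Ly6c1, Itm2a and Slco1a4, and of at most 1 of 5 genes of other cells (Vtn, Kcnj8, Mog, Aqp4, C1qa). It held no UMI of the 5 arterial genes Gkn3, Sema3g, Bmx, Vegfc and Fbln2, and UMIs of at most 1 of the 5 venous genes Vwf, Slc38a5, Tmem252, Lcn2 and Nr2f2. It held UMIs of at most 1 of the 6 interferon genes Ifit1, Ifit2, Ifit3, Isg15, Rtp4 and Usp18, and fewer than 2 UMIs of Plvap, a gene of fenestrated capillaries. By this rule 1410 of 11605 kept cells were capillary, 680 of 6327 Mr1+/+ cells and 730 of 5278 Mr1-/- cells. Where 2 values stand side by side below, the first is from the Mr1+/+ library.

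Both groups were 7-month-old mice that received no treatment. The Mr1+/+ mice carry Mr1, which encodes an MHC class I-like molecule that shows microbial riboflavin intermediates to MAIT cells, a class of innate-like T cell, and the Mr1-/- mice lack it. Dissociated hippocampal cells were sorted as DAPI-negative and Draq5-positive events, that is, as live nucleated cells, and converted to libraries by 10x Genomics 5' chemistry. The number of mice behind each library and the deleted part of Mr1 are not given in the sources used here. Genotype, mice, dissection, sort and library preparation cannot be told apart, because each genotype has 1 library. No test, p-value or standard error is therefore given, and every interval covers counting error only. The Mr1 label was checked first: Mr1+/+ capillary cells held 7 Mr1 UMIs (95% Poisson interval 2.81 to 14.4) and Mr1-/- capillary cells 0 (0 to 3.69). Over all kept cells the counts were 138 and 2.

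Brain capillaries form the blood-brain barrier. Their endothelial cells are sealed to each other by tight junctions, take up little by transcytosis, and carry polarised transporters that admit glucose, amino acids and other nutrients and return drugs and waste to the blood. Wnt and beta-catenin signalling keeps this programme active, and transcripts change gradually along the vessel from artery to capillary to vein.

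The kept capillary cells had medians of 2126.5 and 2120.5 UMIs, with 1204 and 1215.5 detected genes. Their lower quartile of UMIs differed more, at 1322 and 1631, and 472 and 580 cells held at least 1500 UMIs. Summed over cells, the classes held 1547872 and 1652316 UMIs. Median mitochondrial shares were 2.54% and 2.85%. The libraries shared 44 barcode sequences, of which 3 Mr1+/+ and 4 Mr1-/- barcodes were capillary cells. Scrublet, a doublet caller, marked 64 Mr1+/+ capillary cells (9.41%) and 33 Mr1-/- capillary cells (4.52%). These were kept, and their removal is treated as an alternative.

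Capillary cells made up 10.7% of the kept Mr1+/+ cells (exact Clopper-Pearson 95% interval 9.99 to 11.5) and 13.8% of the kept Mr1-/- cells (12.9 to 14.8). The difference was 3.08 percentage points (95% Newcombe interval 1.88 to 4.29). Among cells that met only the endothelial and other-cell conditions, 1551 and 1633 in number, the capillary share was 43.8% and 44.7%. That difference of 0.860 points (-2.59 to 4.31) lay within counting error. Endothelial cells as a whole were 24.5% and 30.9% of the libraries. Which cells survive dissociation and sorting also sets these shares, and its part was not tested.

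Of the 4 markers given for the class, Slc7a5 and Slc16a1 were not used by the rule. Slc7a5, the large neutral amino acid carrier, reached 1360 and 1258 CPM (UMIs of the gene over all UMIs of the class, scaled to 1e6) in capillary cells. Over the kept cells that failed the endothelial or the other-cell condition, it was at 18.7 and 21.4 CPM. Slc16a1, which carries lactate and ketone bodies, reached 347 and 341 CPM against 20.7 and 15.9. Both were found in more capillary cells than in oligodendrocytes, which should lack Slc7a5: UMIs of Slc7a5 were seen in 82.2% and 84.4% of capillary cells and in 1.45% and 0.89% of oligodendrocytes, whose median depths of 4413 and 4224.5 UMIs were higher. Slc16a1 was seen in 39.6% and 40.1% of capillary cells and 12.9% and 10.7% of oligodendrocytes. Cldn5 at 3604 and 4600 CPM and Slco1a4 at 1279 and 1325 CPM chose the cells and so describe them only. Other endothelial groups, defined below, held both markers too. Slc7a5 was at 328 and 385 CPM in arterial-marked and 897 and 706 CPM in venous-marked cells. Slc16a1 was at 47.8 and 59.8 CPM in arterial-marked and 383 and 164 CPM in venous-marked cells. The markers thus set the class apart from cells outside the endothelium, and Slc16a1 did not set it apart from venous-marked cells in both libraries.

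The rule left some RNA or cells of other types in the class, and their amount differed between the libraries. Summed over 10 microglia markers, capillary cells held 3408 and 1773 CPM, and all 10 were lower in the Mr1-/- library. All 7 smooth muscle markers (1622 and 497 CPM) and all 10 astrocyte markers (1556 and 983 CPM) were lower too, although 885 and 703 CPM of the astrocyte sum came from S1pr1, which endothelial cells also express, while 10 oligodendrocyte markers held 3506 and 3543 CPM. Of these, 972 and 822 CPM were Mal, seen in 65.7% and 59.5% of capillary cells, and 56 and 29 cells held 3 or more of the 10 markers. Erythroid markers went the other way, from 255 to 3090 CPM, and 10 pericyte markers stayed low at 131 and 120 CPM, with Kcnj8 and Abcc9 at 1 UMI each in Mr1+/+ cells and 0 in Mr1-/- cells. Few cells carried most of this: 3 or more microglia markers were seen in 13 and 9 cells, smooth muscle markers in 19 and 4, and erythroid markers in 1 and 2. Without every cell that held 3 or more markers of another type, 580 and 674 cells remained, with 102 and 66 CPM of microglia markers, 30 and 21 CPM of smooth muscle markers, and 909 and 631 CPM of oligodendrocyte markers. In these cells, an alternative chosen after seeing the data, the Mr1-/- over Mr1+/+ ratio was 0.563 for Tsc22d3, 0.518 for Ddit4, 0.671 for Cdkn1a, 0.565 for Dnaja1, 0.668 for Hspa8 and 0.713 for Klf2. It was 1.34 for H2-K1, 1.303 for B2m and 1.65 for Bok, genes whose values in all capillary cells follow below.

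The borders of the class, given here as a description, differed in how sharply they separated cells. With 3 of the 6 endothelial genes, just inside, 30 Mr1+/+ and 19 Mr1-/- cells had median depths of 904 and 737 UMIs. With 2 genes, just outside, 32 and 11 cells had 3763.5 and 3016 UMIs and only 62.4 and 97.7 CPM of Slc7a5, against 697 and 467 CPM inside. The venous border ran through similar cells: 370 and 315 cells held 1 venous gene and 172 and 131 held 2, with 1331 and 1224 CPM of Slc7a5 inside and 1468 and 1156 CPM outside. The interferon border likewise split 230 and 283 cells with 1 gene from 98 and 167 with 2. At the arterial border 100 and 101 cells held 1 gene, with 732 and 723 CPM of Slc7a5. Only 1 cell of each library held 1 Plvap UMI, and 0 and 2 cells held 2. Arterial-marked cells (2 or more arterial genes, 174 and 179 cells) and venous-marked cells (3 or more venous genes, 98 and 58 cells) were deeper than capillary cells, with medians of 2681 to 3292 UMIs. So were interferon-marked cells (3 or more interferon genes, 190 and 214 cells), with 2988.5 and 2646.5 UMIs, and the part of depth in who entered each class was not tested. Interferon-marked cells had no limit on arterial or venous genes, so this group can share cells with the arterial-marked and venous-marked groups.

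Against arterial-marked cells, capillary cells held more transcripts of nutrient carriers. Of 3112 genes outside the rule that averaged 50 CPM or more, 7.9% were at least 1.3-fold higher in capillary cells in both libraries after adding 10 CPM, and 8.23% were lower. Car4, a membrane-bound carbonic anhydrase, stood at 1762 against 59.8 CPM in Mr1+/+ mice and 2064 against 63.6 CPM in Mr1-/- mice, log2 differences of 4.88 and 5.02. Slc16a1 was higher by log2 2.86 (2.31 to 3.46) and 2.51 (1.995 to 3.07), and Slc7a5 by 2.05 and 1.71. The excitatory amino acid carrier Slc1a1 was higher by 2.06 and 2.73, the cationic amino acid carrier Slc7a1 by 1.60 and 1.72, and the glutamine carrier Slc38a3 by 1.67 and 1.48. Tfrc, the transferrin receptor, was higher by 3.41 and 1.88, and the iron exporter Slc40a1 by 1.65 and 1.20.

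Other genes that led the capillary side over arterial-marked cells were Ctla2a (log2 2.92 and 3.06), an inhibitor of cysteine proteases, Tmsb10 (2.49 and 2.64), which binds actin monomers, and Gatm (1.95 and 3.08), an enzyme of creatine synthesis. Not every carrier followed: the taurine carrier Slc6a6 was lower in capillary cells by log2 -0.76 and -0.85, and Slc2a1, the glucose carrier GLUT1, by -0.28 and -0.50. The thyroid hormone carrier Slco1c1 did not differ beyond counting error (-0.04, -0.19 to 0.11, and -0.00, -0.16 to 0.16). Genes lower in capillary cells included Mgp (log2 -6.15 and -6.07), an inhibitor of calcification, and Stmn2 (-3.64 and -3.56). Fbln5, an elastic fibre protein, and Vcam1, an adhesion molecule for leukocytes, were also among them. In Mr1+/+ cells the Fbln5 level was 3.23 CPM against 224 CPM, and that of Vcam1 4.52 against 103 CPM.

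Against venous-marked cells fewer genes stood apart, 5.07% higher and 3.82% lower of 3039. Cxcl12, a chemokine, led the capillary side at 1887 against 568 CPM and 1931 against 446 CPM (log2 1.73 and 2.11). Mfsd2a, a carrier of docosahexaenoic acid that also limits caveolar transcytosis, was higher by 1.25 (0.85 to 1.69) and 1.60 (0.93 to 2.37). Stra6, the receptor for retinol-binding protein, was higher by 2.30 and 1.74, and Alpl, tissue-nonspecific alkaline phosphatase, by 1.92 and 1.80. Lower in capillary cells were Lrg1 (1.29 against 333 CPM and 0 against 653 CPM), Vcam1 (-5.78 and -5.96) and the interleukin-1 receptor Il1r1 (-3.72 and -4.39). Slc16a1 gave no single order, since venous-marked cells held 383 CPM of it in Mr1+/+ and 164 CPM in Mr1-/- mice. Car4 also separated capillary from arterial-marked cells and not from venous-marked cells (log2 -0.07 and 0.32).

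**Figure D1:**
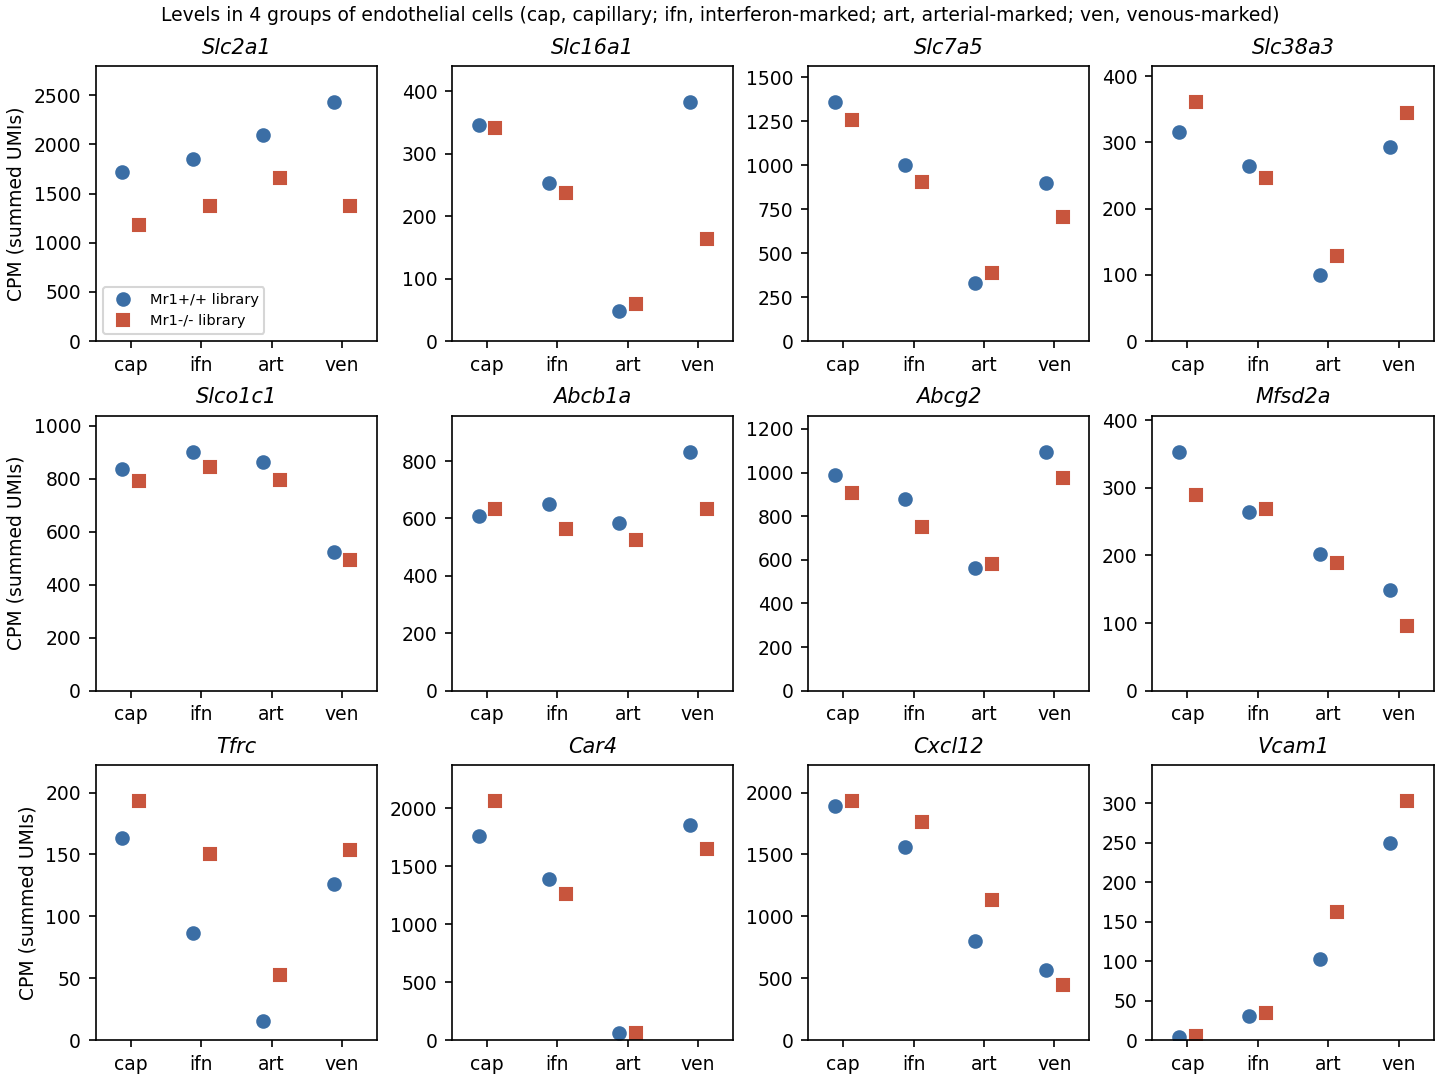
CPM (linear axes from 0) of 12 genes in capillary, interferon-marked, arterial-marked and venous-marked endothelial cells, with circles for the Mr1+/+ library and squares for the Mr1-/- library, 1 point per library. Slc7a5, Slc38a3, Tfrc and Car4 are lowest in arterial-marked cells, Cxcl12 and Mfsd2a lowest in venous-marked cells, and Vcam1 is near 0 in capillary cells.

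Between genotypes, most genes of capillary cells lay close together. Of 3424 genes that averaged 50 CPM or more and had 50 UMIs or more, 86 (2.51%) were at least 1.3-fold higher in the Mr1-/- library after adding 10 CPM to both values, and 158 (4.61%) were at least 1.3-fold lower. These are called higher and lower below. The median log2 ratio of Mr1-/- over Mr1+/+ was 0.01, with quartiles of -0.13 and 0.13. A narrower count took only genes at 0.2 or more of their level in the highest cell class. It also left out mitochondrial, ribosomal and haemoglobin genes and the sex genes Xist, Tsix, Ddx3y, Eif2s3y, Uty and Kdm5d. Other genes of the X chromosome, such as Tsc22d3 and Rtl8b, stayed in. By this narrower count 82 were higher and 95 lower, so the rest of the lower genes were far more abundant in another class or of the kinds left out. Lists of genes are described by how many members were above a ratio of 1 among those with at least 20 UMIs. All lists were chosen with earlier results of these data known, so shares of all genes set beside them are description only. Of all 9674 such genes, 50.3% were above 1, 4.84% had an interval wholly above and 6.67% wholly below.

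**Figure D2:**
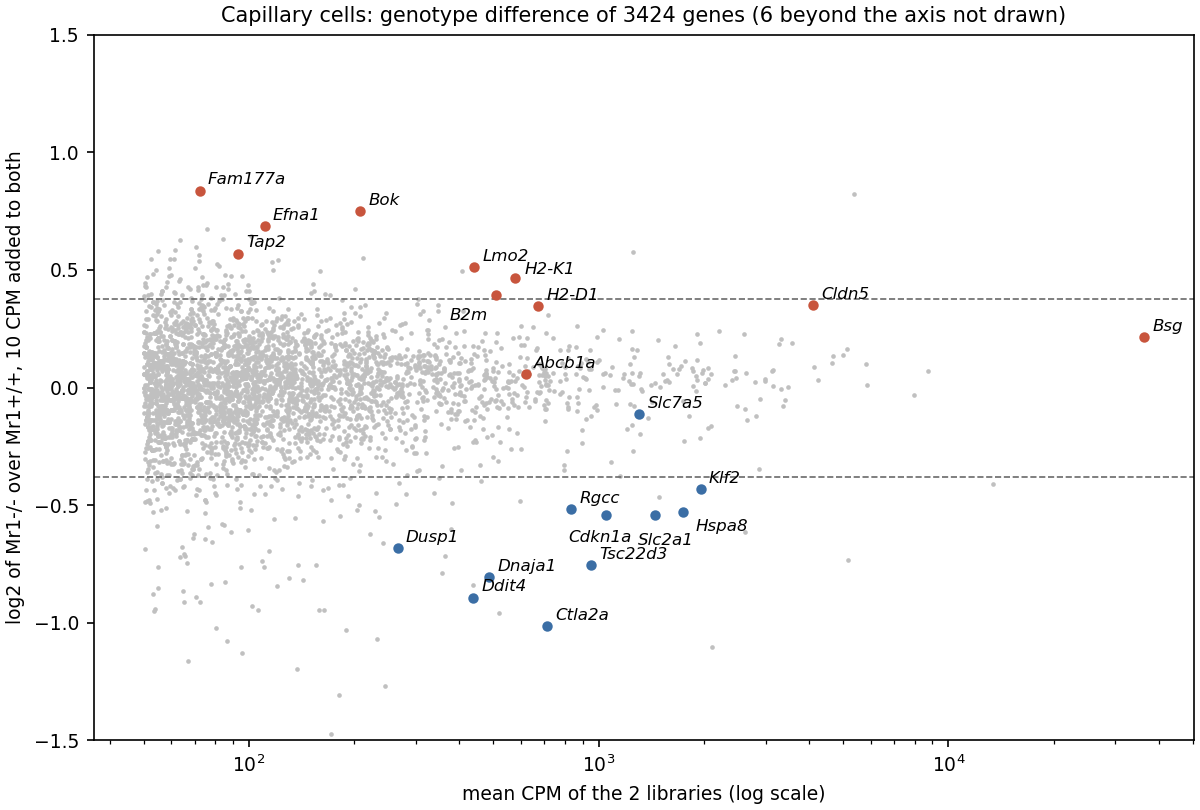
Each point is 1 of 3424 genes in capillary cells: the mean CPM of the 2 libraries on a log axis against log2 of Mr1-/- over Mr1+/+ after adding 10 CPM, with dashed lines at a fold of 1.3 and 6 genes beyond the axis not drawn. Ctla2a, Ddit4, Dnaja1 and Tsc22d3 lie low and Bok, Lmo2 and H2-K1 high, while Abcb1a and Slc7a5 lie between the lines.

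Among carriers, Slc2a1 stood apart. This gene of the glucose carrier GLUT1 lies on chromosome 4 (119108711 to 119137983, plus strand, mm10) and gave 2662 and 1944 UMIs. Its level was 1720 and 1177 CPM, a ratio of 0.684 (95% interval 0.645 to 0.726). It was seen in 87.9% and 86.4% of capillary cells and, after thinning every cell to 1500 UMIs, in 86.2% and 80.2%, with 2.69 and 1.82 UMIs per cell. In oligodendrocytes it was seen in 20.2% and 19.2% of cells. The lower level in the Mr1-/- library appeared in the other endothelial groups as well, although interferon-marked cells can also belong to the others. The level was 1854 and 1373 CPM in interferon-marked, 2091 and 1659 in arterial-marked and 2429 and 1374 CPM in venous-marked cells. In astrocytes it was 136 and 136 CPM. Without cells that held markers of another type, the ratio was 0.658 (0.619 to 0.700). Its neighbours on the list did not share it: Bsg, the chaperone of monocarboxylate carriers, was at 33496 and 38856 CPM (1.16, 1.15 to 1.17), and Slc16a1 had a ratio of 0.982 (0.871 to 1.11).

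Of other nutrient carriers, 0 of 8 tested amino acid carriers and 0 of 14 tested carriers of organic anions, hormones, vitamins and metals were past the fold. Over all tested genes 2.51% were higher and 4.61% lower, so lists this small cannot be set apart from all genes by these counts. Slc7a5 had a ratio of 0.925 (0.870 to 0.983) and its partner chain Slc3a2 0.941 (0.856 to 1.03). Slc38a3 (1.14, 1.01 to 1.29) and Slc7a1 (1.15, 1.02 to 1.29) leaned the other way, so 5 of 10 measured amino acid carriers were above 1 and their median log2 ratio was 0.01. Slco1c1 had a ratio of 0.945 (0.874 to 1.02), and the thiamine carrier Slc19a3 one of 1.29 (0.999 to 1.68). None of the 3 tested efflux pumps passed the fold, a number too small to compare with all tested genes. Abcb1a, which encodes P-glycoprotein, stood at 607 and 632 CPM (1.04, 0.953 to 1.14), and Abcg2 at 989 and 908 CPM (0.918, 0.854 to 0.986).

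Genes of receptor-mediated transport and caveolae were likewise within the fold, 0 of 13 tested, beside 2.51% higher and 4.61% lower of all tested genes. The DHA carrier gene Mfsd2a was 353 and 290 CPM (0.820, 0.724 to 0.929), and Cavin2, a coat protein of caveolae, 308 and 255 CPM (0.827, 0.724 to 0.945). Cav1, the main caveolar protein, was at 413 and 436 CPM (1.06, 0.947 to 1.18), and Tfrc at 163 and 193 CPM (1.18, 0.998 to 1.40). The direction of Mfsd2a turned among cells with few immediate early transcripts, as given in the closing section.

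Junction genes showed 10 of 23 measured members above 1 and 0 of 14 past the fold, beside 2.51% higher and 4.61% lower of all tested genes. Cldn5, the main claudin of the barrier, was 3604 and 4600 CPM (1.28, 1.23 to 1.32). The rule reads Cldn5, so this value depends in part on which cells were let in. The wide rule, which drops the arterial, venous, interferon and Plvap conditions, gave 1.23 but reads Cldn5 too. Cgnl1, paracingulin, was 295 and 362 CPM (1.23, 1.09 to 1.39), and Ctnna1, alpha-catenin, 208 and 168 CPM (0.809, 0.686 to 0.953). Esam (0.952, 0.891 to 1.02) and Jcad (1.05, 0.954 to 1.15) differed by less than their intervals.

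The list with the lowest median among those of endothelial function answers to glucocorticoids, hormones that brain endothelial cells sense through the receptor encoded by Nr3c1. Of 28 measured members of this list 3 were above a ratio of 1 and 25 below, against 50.3% above over all genes, and the median log2 ratio was -0.52. Of 18 tested members 9 were lower, against 4.61% of all tested genes, and 0 higher. Tsc22d3, which encodes the leucine zipper protein GILZ, gave 1857 and 1167 UMIs, that is, 1200 and 706 CPM (0.589, 0.547 to 0.634). Ddit4, an inhibitor of mTORC1, was at 572 and 303 CPM (0.530, 0.474 to 0.592), and Cdkn1a, the cell cycle inhibitor p21, at 1245 and 852 CPM (0.684, 0.638 to 0.733). Sgk1, a kinase that controls ion channels, was at 298 and 185 CPM (0.620, 0.535 to 0.718). Some members did not follow: Nr3c1 itself had a ratio of 1.03 (0.868 to 1.22), and the metallothionein gene Mt1, which also answers to metals and lies at 0.13 of its highest class, 1.10 (1.04 to 1.16). Members of the list that other cells hold far more of, such as Fam107a (0.491) and Gjb6 (0.349), moved with the astrocyte markers, whose part in them was not tested.

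Ctla2a, on chromosome 13, had the second-lowest ratio of the 30 genes named by rank, after Tmem252, a venous gene that the rule reads. It gave 1478 and 773 UMIs, or 955 and 468 CPM (0.490, 0.449 to 0.535). It was seen in 67.6% and 53.2% of capillary cells, and in 63.6% and 45% after thinning to 1500 UMIs, against 0.07% and 0.00% of thinned oligodendrocytes. Without cells that held markers of another type the ratio was 0.454 (0.414 to 0.497). The 250 bases before 1 of its 2 RefSeq starts hold the letters ACANNNTGT, the core of a glucocorticoid response element, 177 to 169 bases upstream. Ctla2b, a near-identical neighbour with 180 and 145 UMIs, makes the split of reads between the pair uncertain. The sequence is shown because Ctla2a has the lowest ratio of the list among genes named by rank; capitals mark that match.
Ctla2a promoter, GRCm38.p6 chr13:60936626-60936875, minus strand: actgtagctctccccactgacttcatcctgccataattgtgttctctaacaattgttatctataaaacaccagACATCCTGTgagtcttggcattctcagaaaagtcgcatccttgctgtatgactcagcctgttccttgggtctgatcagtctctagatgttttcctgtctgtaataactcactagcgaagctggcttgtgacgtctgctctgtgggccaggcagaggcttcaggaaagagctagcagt
This core, searched on both strands (it reads the same on each), was found in 7 of the 31 list members with a RefSeq promoter (22.6%) and in 6.76% of 27025 symbols with promoters of that length. Sgk1, Mt1, Fam107a and the neighbouring paralog Ctla2b were among the 7. The heat shock arrangement TTCNNGAA was as frequent in the same list, at 7 of 31 against 8.11%, Ctla2a included. A match shows only that these letters are present.

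Heat shock chaperones, which fold and refold proteins, were lower almost throughout. Of 24 measured members 1 was above a ratio of 1, the transcription factor gene Hsf1 (1.03, 0.780 to 1.36), and the median log2 ratio was -0.33. Of 19 tested members 6 were lower, against 4.61% of all tested genes, and 0 higher. Hspa8, the constitutive HSP70, gave 3195 and 2356 UMIs, or 2064 and 1426 CPM (0.691, 0.655 to 0.729), and was seen in 95.3% and 84.5% of thinned cells. Most cells express it, and thinned oligodendrocytes showed it in 86.4% and 83.3%. Its cochaperone Dnaja1 was at 621 and 350 CPM (0.564, 0.508 to 0.626), and Stip1, which links HSP70 to HSP90, at 69.8 and 46.0 CPM (0.659, 0.485 to 0.892). Hsp90ab1 (0.853, 0.809 to 0.899) and Hspb1, encoding the small chaperone HSP27 (0.860, 0.818 to 0.904), were lower by less than the fold. Hsp90b1, the endoplasmic reticulum form, was not set apart (0.980, 0.875 to 1.10). The unfolded protein response had 10 of 23 members above 1 and 0 of 14 past the fold, beside 2.51% higher and 4.61% lower of all tested genes.

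The promoter of Dnaja1 is shown because it is the chaperone gene among the 30 named by rank. RefSeq gives 3 starts for this gene, and the window of the start with a match is printed; by GENCODE M21 the gene begins at 40722150, so the window lies inside it. The window holds GAANNTTC, a pair of heat shock element units that face each other, 124 to 117 bases before that RefSeq start, in capitals.
Dnaja1 promoter, GRCm38.p6 chr4:40722218-40722467, plus strand: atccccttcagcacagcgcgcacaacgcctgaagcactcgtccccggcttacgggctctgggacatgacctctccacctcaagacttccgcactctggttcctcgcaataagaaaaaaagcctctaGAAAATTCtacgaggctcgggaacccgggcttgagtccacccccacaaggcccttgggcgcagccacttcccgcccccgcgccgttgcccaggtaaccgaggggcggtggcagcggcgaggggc
These letters, the same on both strands, were found in 6 of 17 list members with a promoter (35.3%) and in 7.73% of the 27025 symbols. Besides Dnaja1 they were Hspa1a, Hspa1b, Hspb1, Hspd1 and Hspe1, of which Hspd1 and Hspe1 share 1 bidirectional promoter. The reverse arrangement TTCNNGAA was found in 4 of 17, against 8.11%, and can overlap the first.

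Immediate early genes, which respond within minutes to many stimuli and also to tissue dissociation, had 9 of 32 members above 1 and a median log2 ratio of -0.33. Of 22 tested members 7 were lower, against 4.61% of all tested genes, and 0 higher, against 2.51%. Dusp1 and Sgk1 are also on the glucocorticoid list. Dusp1, a phosphatase of MAP kinases, was at 331 and 202 CPM (0.611, 0.531 to 0.703). Rhob, a small GTPase, was at 1299 and 997 CPM (0.768, 0.719 to 0.820). Jun (1.19, 1.05 to 1.35) and Ier3, at 331 and 384 CPM, stood above 1, and Egr1 had 5 and 19 UMIs. Flow-responsive genes, a list that shares Klf2 and Klf4 with this one, had 2 of 13 members above 1 but a median of -0.05. Klf2, the transcription factor that laminar flow induces, was at 2251 and 1664 CPM (0.739, 0.703 to 0.778) and Klf4 at 455 and 355 CPM (0.780, 0.698 to 0.872). Nos3, the endothelial nitric oxide synthase, was at 176 and 175.5 CPM (0.995, 0.841 to 1.18).

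**Figure D3:**
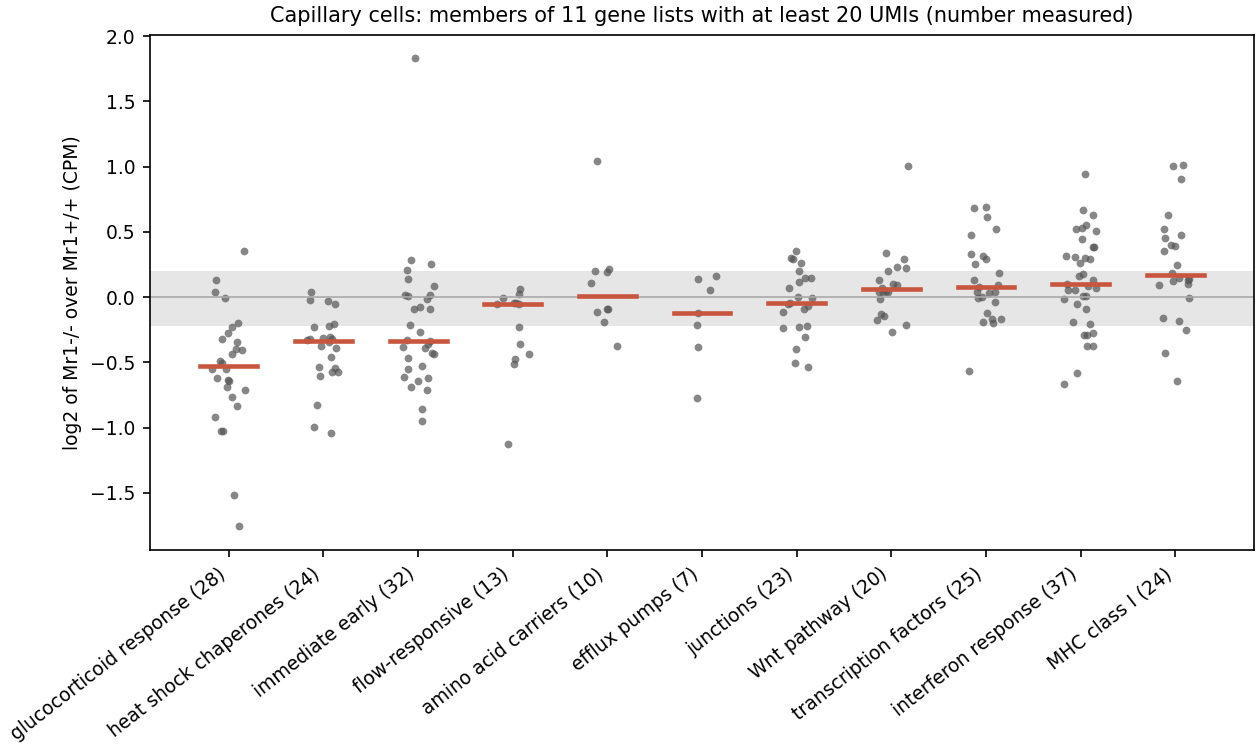
Log2 of Mr1-/- over Mr1+/+ (CPM) in capillary cells for members of 11 gene lists with at least 20 UMIs, 1 point per gene, with the number measured in brackets, a red line at each median and a grey band for the quartiles of all 9674 genes (-0.22 to 0.20). The medians of the glucocorticoid (-0.52), heat shock (-0.33) and immediate early (-0.33) lists lie below the band, and those of the other 8 lists lie within it.

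MHC class I genes, which present peptides to CD8 T cells, leaned higher in the Mr1-/- library. Of 24 measured members 18 were above a ratio of 1, with a median log2 ratio of 0.17. Of 17 tested 4 were higher, against 2.51% of all tested genes, and 1 lower, against 4.61%. H2-K1, a classical heavy chain on chromosome 17, gave 745 and 1105 UMIs, or 481 and 669 CPM (1.39, 1.27 to 1.53), and H2-D1 was at 590 and 754 CPM (1.28, 1.17 to 1.39). Heavy chain genes are near-identical paralogs, and reads that counting could split between them make each single value uncertain. B2m, the light chain, has no such copy and was at 437 and 578 CPM (1.32, 1.20 to 1.46). Tap2, a subunit of the peptide pump, was at 73.0 and 113 CPM (1.55, 1.22 to 1.98), while its partner Tap1 gave 35 and 24 UMIs (0.642, 0.366 to 1.11). The endoplasmic reticulum chaperone Canx was lower (0.744, 0.605 to 0.914), and so was the non-classical H2-T23 within the fold (0.838, 0.711 to 0.988). After thinning, B2m was seen in 45.1% and 55.3% of capillary cells and in 4.62% and 5.06% of oligodendrocytes.

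The B2m promoter is shown because this gene lacks the doubt over paralogs and its promoter holds the letters described next. Tap2 had a higher ratio (1.55) but was not among the list members with that match. The B2m promoter holds GAAA, any 2 bases and GAAA again, 139 to 130 bases before the start, in capitals. These letters are the core of an interferon-stimulated response element.
B2m promoter, GRCm38.p6 chr2:122147437-122147686, plus strand: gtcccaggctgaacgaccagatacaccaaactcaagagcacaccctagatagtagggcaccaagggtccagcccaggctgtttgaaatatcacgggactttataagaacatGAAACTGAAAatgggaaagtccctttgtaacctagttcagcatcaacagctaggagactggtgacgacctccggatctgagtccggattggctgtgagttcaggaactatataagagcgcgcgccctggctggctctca
On either strand this core was found in 3 of 21 list members with a promoter (B2m, H2-T22 and H2-T23; 14.3%) and in 3.46% of the 27025 symbols. Interferon response genes outside the rule had 25 of 37 members above 1 and a median of 0.10, with 3 of 21 tested higher, against 2.51% of all tested genes, and 1 lower, against 4.61%. Ly6e, at 4004 and 4252 CPM (1.06, 1.03 to 1.10), and Ifitm3, at 893 and 1000 CPM (1.12, 1.04 to 1.20), differed little, and Igtp, a guanosine triphosphatase that interferon gamma induces, gave 37 and 76 UMIs (1.92, 1.28 to 2.93). Tor3a (0.668, 0.481 to 0.923) lies within 20 Mb of Mr1 on chromosome 1. None of the 30 genes named by rank lies there. The rule caps interferon genes, so the highest responders were left out of the class by design.

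Regulators of endothelial identity mostly held close values, with single exceptions. Of 18 tested transcription factor genes 2 were higher, against 2.51% of all tested genes, and 0 lower, and 17 of 25 measured members were above 1. Lmo2, a partner of the haematopoietic and endothelial factor Tal1, was at 361 and 519 CPM (1.44, 1.29 to 1.60), without mixed cells 404 and 556 CPM. Erg gave 45 and 77 UMIs (1.60, 1.10 to 2.37) and Meox1 51 and 88 (1.62, 1.13 to 2.33). Epas1, which encodes HIF-2 alpha, was at 626 and 547 CPM (0.873, 0.796 to 0.957). In the Wnt and beta-catenin list 14 of 20 members were above 1 and 0 of 13 passed the fold, beside 2.51% higher and 4.61% lower of all tested genes. The Wnt receptor Fzd4 (0.887, 0.709 to 1.11) and the target genes Lef1 (0.863, 0.734 to 1.01) and Axin2 (0.907, 0.627 to 1.31) did not differ beyond counting error, and Apcdd1, a target gene that inhibits the pathway, was at 165 and 209 CPM (1.26, 1.07 to 1.49).

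Genes of growth factor pathways differed singly. Smad7, an inhibitory Smad of TGF-beta signalling, was at 122 and 76.9 CPM (0.629, 0.499 to 0.792). It was 1 of 2 lower genes among 12 tested in its list, against 4.61% of all tested genes. Id3, a target of BMP signalling, was at 2401 and 2812 CPM (1.17, 1.12 to 1.22). Hey1, a Notch target that marks arteries, was at 108 and 77.5 CPM (0.718, 0.566 to 0.909). It was the only gene past the fold of 7 tested in the Notch list, beside 4.61% lower among all tested genes. Pdgfb, the ligand that recruits pericytes, was at 138 and 176 CPM (1.28, 1.07 to 1.53), and the VEGF receptor genes Flt1 (1.001, 0.945 to 1.06; a rule gene) and Kdr (1.05, 0.935 to 1.17) did not differ beyond counting error.

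The genes named by rank had varied roles. On the side higher in the Mr1-/- library, Bok, a BCL-2 family protein, gave 236 and 435 UMIs, or 152 and 263 CPM (1.73, 1.47 to 2.03), and was seen in 21.8% and 31.6% of thinned cells against 0.21% and 0.10% of thinned oligodendrocytes. Efna1, an ephrin ligand, was at 82.7 and 139 CPM (1.68, 1.35 to 2.11), Rhoj, an endothelial small GTPase, at 64.0 and 105 CPM (1.64, 1.27 to 2.12), and Hs3st1, a heparan sulfate sulfotransferase, at 56.2 and 95.6 CPM (1.70, 1.301 to 2.24). Fam177a had the highest ratio, 49.1 and 95.6 CPM (1.95, 1.47 to 2.60). Atp6v1d, Samm50, Trim37, Rnaset2b, Akip1, Tap2, Tmpo, Rtl8b and Ccndbp1 were also among the 15, with ratios of 1.49 to 1.66. On the lower side Pmaip1, the BH3-only protein NOXA, was at 86.6 and 43.0 CPM (0.496, 0.367 to 0.667), Irak2, a kinase of interleukin-1 signalling, at 84.0 and 47.2 CPM (0.562, 0.419 to 0.7499), and Cs, citrate synthase, at 81.4 and 47.2 CPM (0.580, 0.432 to 0.775). Plaur, the urokinase receptor, Mrps6, Sumo3, Mmd, Cdc42ep4 and Abracl had ratios of 0.493 to 0.591.

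Genes of oxidative phosphorylation and translation differed by small amounts. Nuclear genes of oxidative phosphorylation had 54 of 74 members above 1 with a median of only 0.05, and ribosomal protein genes 58 of 79 with a median of 0.04. Neither list had a member past the fold of 71 and 79 tested, beside 2.51% higher and 4.61% lower of all tested genes. Of the mitochondrially encoded genes 12 of 13 were above 1 (median 0.12). The 2 past the fold were mt-Atp8 (3865 and 6847 CPM, 1.77) and mt-Atp6 (2888 and 1341 CPM, 0.464), which overlap on the same transcript, so reads can be split between them and both values are uncertain. In the hypoxia and glycolysis list 3 of 19 tested members were lower, against 4.61% of all tested genes, and 0 higher. These were Slc2a1, Ddit4 and Bnip3, the last named after its value was seen (0.757, 0.643 to 0.889), while the list's sum was 8236 and 7476 CPM. Within it the glycolytic enzymes differed, with Gapdh at 1059 and 1223 CPM (1.15, 1.08 to 1.23) and Ldha at 731 and 698 CPM (0.956, 0.880 to 1.04). In the circadian list, the output gene Dbp (0.666, 0.482 to 0.917) and Per1 (0.653, 0.464 to 0.913) were below 1 while Arntl (1.50, 0.994 to 2.28) and Clock (1.38, 0.999 to 1.93) were above.

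Cell by cell, all 3 quartiles of the glucocorticoid and heat shock shares were lower in Mr1-/- capillary cells. After thinning to 1500 UMIs, glucocorticoid response genes took a median of 1.07% of a cell's UMIs in 472 Mr1+/+ cells (quartiles 0.800 to 1.33) and 0.800% in 580 Mr1-/- cells (0.6 to 1). Heat shock chaperones took 0.933% (0.667 to 1.13) and 0.667% (0.533 to 0.867). The share of MHC class I genes was 0.333% (0.267 to 0.533) and 0.4% (0.267 to 0.6). The ranges of the libraries overlapped in all 3 lists. At all depths the medians were 1.05% and 0.802%, 0.882% and 0.670%, and 0.364% and 0.437%. Amino acid carriers took 0.367% and 0.4%.

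**Figure D4:**
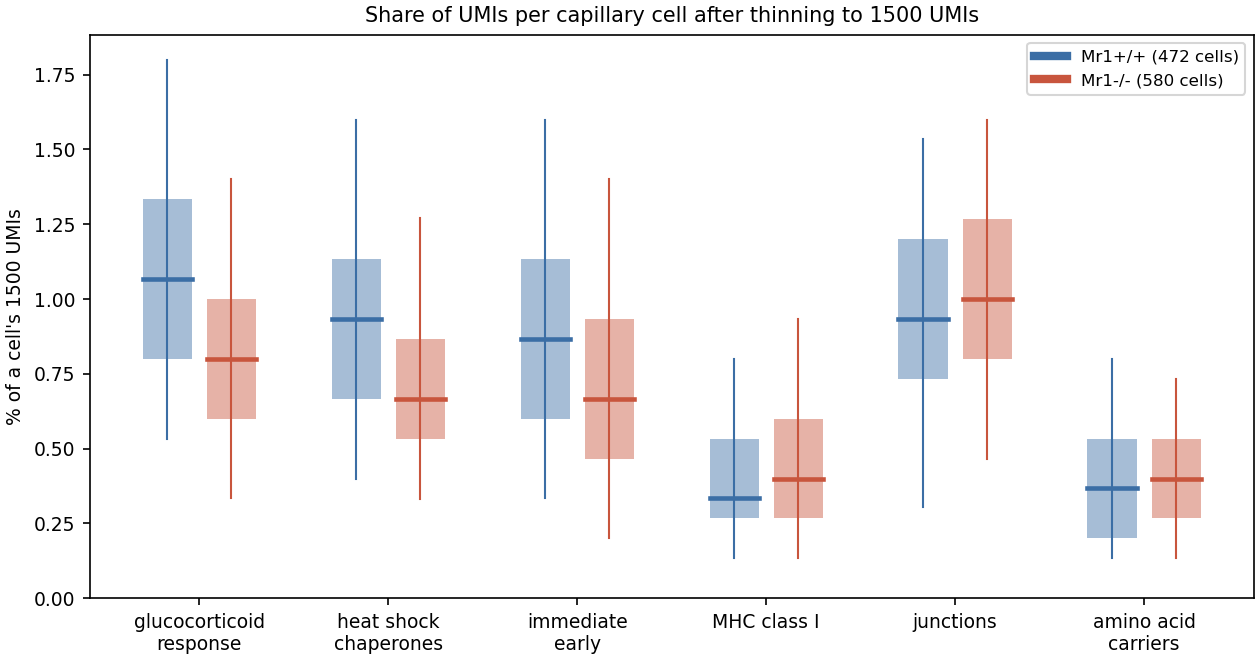
Percent of a cell's UMIs in 6 gene lists after thinning every capillary cell to 1500 UMIs, for 472 Mr1+/+ and 580 Mr1-/- cells, with a thick line at the median, a box from the lower to the upper quartile and a thin line from the 5th to the 95th percentile of cells. The Mr1-/- boxes sit lower for glucocorticoid, heat shock and immediate early genes (medians 0.800%, 0.667% and 0.667%, against 1.07%, 0.933% and 0.867%), and the boxes overlap in each list.

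Within a library, the genes that varied most between capillary cells were mainly those of other cells. Among 2419 genes that averaged 0.1 UMI or more per thinned cell, the median Fano factor (variance over mean) was 1.02 in the Mr1+/+ and 1.01 in the Mr1-/- library, close to the 1 of pure counting. Among the 12 highest were Hbb-bs, Gm42418, Acta2, Cst3, Ptgds, Tagln, C1qb, C1qc, C1qa and Mt3. Hbb-bs was seen in 0.212% and 0.517% of thinned cells, with up to 189 and 720 UMIs in 1 cell. Among genes at home in endothelium, Bsg had Fano factors of 9.57 and 9.01, Car4 3.90 and 3.73, and Cxcl12 3.02 and 3.03, while Slc2a1 had 1.77 and 1.39.

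The same direction in other cells was common for the leading genes, and no difference between classes was tested. The interferon-marked group can share cells with the arterial-marked and venous-marked groups. Tsc22d3 was lower in the Mr1-/- library in each of the 7 other groups, by log2 -0.66 to -1.05. The glucocorticoid list was lower by median in all of them, from -0.28 in arterial-marked cells to -0.66 in oligodendrocytes, and capillary cells lay at -0.52. In oligodendrocytes most other lists were lower by median as well, so the -0.66 is not particular to glucocorticoid genes there. The interferon response list lay at -0.72, while a few, such as the Wnt (0.06) and cholesterol (0.06) lists, lay above 0. Heat shock chaperones had a median of -0.28 in arterial-marked cells, -0.27 in pericytes, -0.21 in microglia and 0.01 in astrocytes. MHC class I genes were above 1 in 19 of 23 members in arterial-marked, 16 of 20 in venous-marked and 16 of 24 in interferon-marked cells. Their median log2 ratios there were 0.34, 0.39 and 0.28, against 0.17 in capillary cells. In pericytes 17 of 21 members were above 1 and in microglia 15 of 22. In astrocytes 5 of 20 were above 1, and in oligodendrocytes, where most lists were lower, 1 of 19. The share of all genes above 1 is not given for these other classes, so these counts and medians have no baseline of their own. Slc2a1 had log2 ratios of -0.55 in capillary, -0.82 in venous-marked, -0.43 in interferon-marked and -0.33 in arterial-marked cells, and -0.14, -0.09 and 0.00 in microglia, oligodendrocytes and astrocytes.

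**Figure D5:**
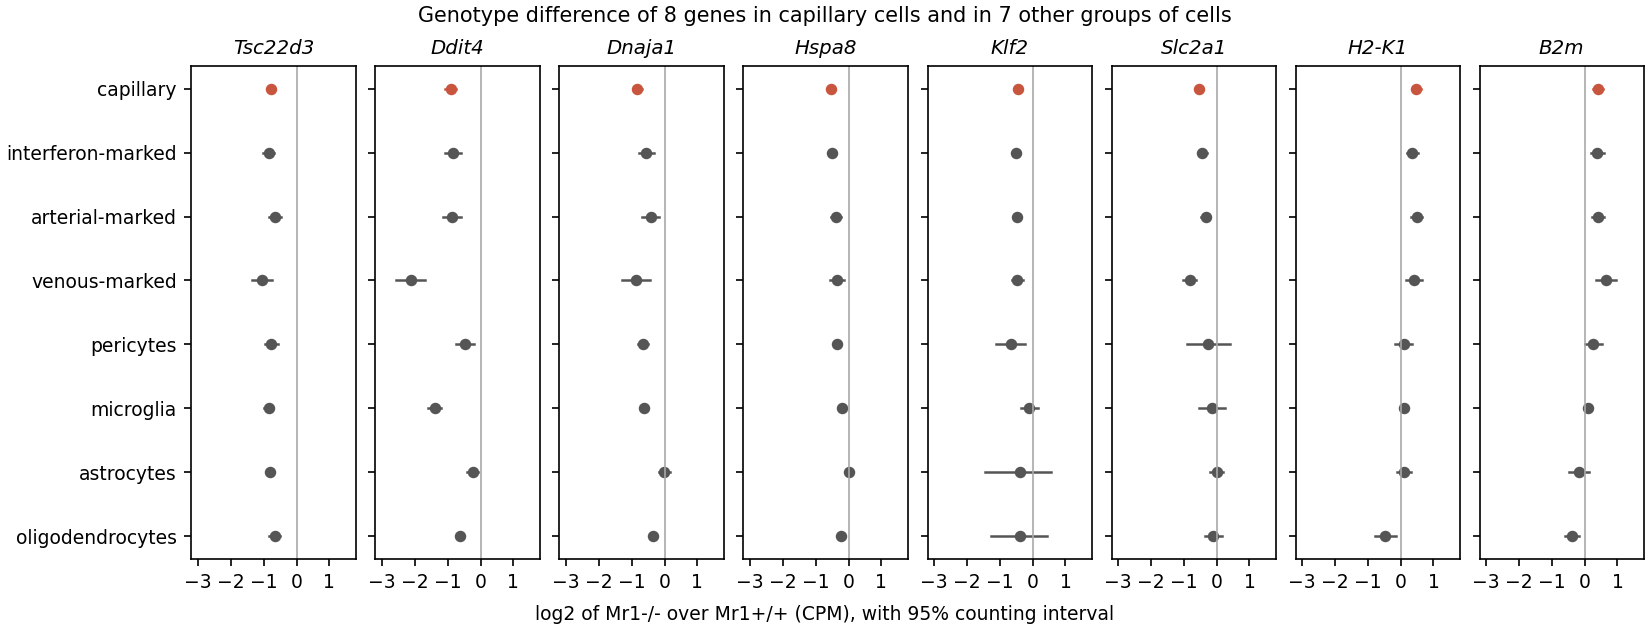
Log2 of Mr1-/- over Mr1+/+ (CPM) of 8 genes in capillary cells (red, top row) and in 7 other groups of cells, with 95% counting intervals (drawn where wider than the point). Tsc22d3 lies left of 0 in all 8 groups, while Slc2a1 and Dnaja1 are at or near 0 in astrocytes and H2-K1 and B2m are left of 0 in oligodendrocytes.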

How the data were processed

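Single-cell RNA was measured in 2 libraries, 1 per genotype. The deposited matrices hold raw UMI counts per gene and barcode, with no normalization. Cell Ranger 3.1.0 is named per the file headers; Cell Ranger 5.1.0, STAR and mm10 are named per the submitters' processing notes. The annotation behind the counts was not given in the sources used here. Barcodes numbered 6410 and 5347, with 23244575 and 18349132 UMIs.

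UMI counts were summed over the cells of a class and scaled to 1e6 per class (CPM). Ratios are Mr1-/- over Mr1+/+, with exact conditional binomial 95% intervals; counts carry exact Poisson, shares Clopper-Pearson and differences of shares Newcombe intervals. UMIs limit but do not remove amplification effects, and intervals cover counting error only. The calculation was tested on simulated counts over 3424 genes, Poisson draws from the pooled profile of both libraries. In them 89.0% of 1.5-fold and 100% of 2-fold changes passed the fold, and 1.49% of unchanged genes did. The draws held no spread between cells, mixed cells or library differences, so the 1.49% covers counting error only. Pericytes held 3 or more of 6 markers, and microglia, astrocytes and oligodendrocytes 4 or more of 10, each with at most 1 endothelial gene.

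Members and lists were chosen with earlier results of these data known. Named are the 15 highest and 15 lowest genes by ratio after adding 10 CPM, at 0.2 or more of their highest class. Mitochondrial, ribosomal and haemoglobin genes, and the sex genes Xist, Tsix, Ddx3y, Eif2s3y, Uty and Kdm5d, were left out of that ranking. Also named are rule and marker genes and all members of lists of up to 12. From longer lists the 4 members with most UMIs and the 4 largest ratios each way were named. The 10 highest and 10 lowest genes against other vessel cells and the 12 most variable genes were named too. The values of Bsg, Car4, Cxcl12 and Slc2a1 for variation between cells, and the genes compared across cell classes, were chosen after they were seen. Of 47 lists, cholesterol synthesis, coagulation, adhesion, cell division, tip cell, VEGF and arterial- and venous-side genes had median log2 ratios of -0.09 to 0.04. On the arterial side 3 of 10 tested were lower, against 4.61% of all tested genes, and 0 higher: Rgcc, and Hey1 and Clu, named after their values were seen. Clu is also on the astrocyte marker list, at 0.017 of its level in the highest class, and was seen in 6.03% and 3.29% of capillary cells. The part of astrocyte RNA in its lower value was not tested. Endothelial channels had -0.35, with 0 of 5 tested past the fold, beside 2.51% higher and 4.61% lower of all tested genes. A few genes that the rule for names reaches are not reported here. Aldoa was left out because 2 gene IDs carry the symbol. Gene positions are from GENCODE M21, which held 30934 of 31053 gene IDs, and promoters from RefSeq. Alternatives varied scaling, depth, filters, doublets and the rule. Python 3.11.15, NumPy 2.4.6, SciPy 1.17.1, pandas 2.3.3, scanpy 1.11.5 and matplotlib 3.10.9 were used.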

Additional observations from a re-analysis of the deposited data

Results flagged for a closer look

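Rhoj, a small GTPase gene, had a log2 ratio of Mr1-/- over Mr1+/+ of 0.71 in capillary cells and -0.78 in interferon-marked endothelial cells. Tmem252, a venous gene that the selection rule reads, had -1.09 in capillary cells and 0.31 in venous-marked cells, which were chosen by the same gene. Tmpo, which encodes nuclear lamina-associated proteins, had 0.64 in capillary cells and -0.43 in pericytes. Each was picked out because the 2 cell classes of the same libraries moved in opposite directions, and the difference between the classes was not tested.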

How the results depend on the processing

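No paired analysis was possible because each genotype has 1 library, numbered 1 in both, and no library could be left out. Without replicates, the limits are the genotype comparison itself and the depth: genes under 50 CPM were not called. Over 13 alternatives the share of members above a ratio of 1 ranged from 7.14% to 21.4% for glucocorticoid genes, 0% to 12.5% for heat shock and 70.8% to 91.7% for MHC class I.

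The 86 higher and 158 lower genes became 297 and 264 with a stricter rule (4 or more endothelial genes and none of the excluded genes), 37 and 90 with the wide rule, 214 and 247 in cells with an immediate early share at or below the median, 248 and 265 in cells with none of the 5 venous genes, and 574 and 788 with no CPM minimum. The higher genes were 143 in cells with none of the 6 interferon genes, 141 with each cell weighing the same and 165 after thinning. The share difference was 1.77 points with the stricter and 6.43 with the wide rule.

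Of the flow-responsive list 0% were above 1 without Scrublet doublets and 61.5% at low immediate early shares. Heat shock fell to 0% at 1500 or more UMIs and at low immediate early shares; MHC class I was 91.7% with no venous genes and immediate early 46.9% with the stricter rule. Cytosolic ribosomal proteins were above 1 in 59.5% at 1500 or more UMIs, 53.2% (stricter), 51.9% (wide), 46.8% (low immediate early share) and 44.3% (no venous genes). Mitochondrial genes were 61.5% (stricter) and 53.8% (low immediate early share), and oxidative phosphorylation 47.3% (stricter), 56.8% (low immediate early share), 58.1% (no venous genes) and 58.1% (thinned).

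Among the 142 named or listed genes whose interval excluded a ratio of 1, the log2 ratios that changed sign were, at low immediate early shares, Dll4 0.26, Klf4 0.026, Mfsd2a 0.23, Mt1 -0.075 and Slc38a2 0.024; with the stricter rule, Gja1 0.089, H2-Q7 -0.21, Hsph1 0.15, Msmo1 0.089, Ndufa5 -0.17 and Plaur 0.15; without cells holding markers of another type, Lrp1 0.98 and Mt3 0.26; with the wide rule, Ptgs1 0.050 and Tgfbr1 0.13; with no venous genes, Pdgfb -0.0029; after thinning, Ifngr1 0.12. The cause was not tested. Genes whose interval held 1 crossed 0 as well, such as Tap1 (-0.84 to 0.41 over the alternatives), Hsf1 (-0.30 to 0.22), Nr3c1 (-0.34 to 0.09) and Fth1 (-0.29 to 0.32). Settings that leave out mixed cells, venous genes or interferon genes were chosen after seeing the data.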

Other observations

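Transcripts of the basement membrane, on which capillaries rest, differed little in capillary cells. Of 24 measured members 9 were above a ratio of 1. Of 17 tested 1 was lower, against 4.61% of all tested genes, and 0 higher, against 2.51%. The lower gene was P4ha1, a collagen prolyl hydroxylase (75.6 and 53.9 CPM, ratio 0.713, 0.535 to 0.947). Nid2, nidogen 2, gave 43 and 24 UMIs (0.523, 0.303 to 0.881), while fibronectin, Fn1, was at 706 and 711 CPM (1.01, 0.927 to 1.09) and the proteoglycan agrin, Agrn, at 135 and 154 CPM (1.14, 0.948 to 1.38).

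In the list of metallothionein, iron and antioxidant genes 2 of 23 tested members were lower and 0 higher, against 4.61% and 2.51% of all tested genes. Fth1, ferritin heavy chain, had a ratio of 0.964 (0.928 to 1.001) and Gclm, of glutathione synthesis, 1.19 (1.001 to 1.42). Txnip, which binds thioredoxin and limits glucose uptake, was lower (326 and 235 CPM; 0.722, 0.631 to 0.825). Ccl2, a monocyte chemokine, gave 21 and 0 UMIs, a ratio of at most 0.180 by its 95% interval. Without the cells that held 3 or more markers of another cell type, Ccl2 was at 0 CPM in both libraries. Plat, tissue plasminogen activator, was at 346 and 269 CPM (0.777, 0.684 to 0.883), and Rgcc, a gene of the arterial side of the capillary bed, at 985 and 685 CPM (0.695, 0.643 to 0.751).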
